A study of Mus musculus with 28 samples.

Results

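The stretch of mouse chromosome 17 between the genes Camkmt and Six3 was read here through 4C-seq fragments whose midpoint lay in chr17:85458590-85608608 (mm10). The poised enhancer of Six3, called PE Six3, lies inside it and was 1 of the viewpoints, so fragments within 10 kb of its viewpoint fragment (chr17:85485041-85485766) were left out. This rule used positions only and gave 399 fragments with at least 1 read, of 5899 on chromosome 17 in the 4 libraries concerned and 99194 in all 13 libraries analysed. The stretch measures 150.019 kb, of which 129.293 kb remained, 16.451 kb on the Camkmt side of PE Six3 and 112.842 kb on the Six3 side.

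In 4C-seq, crosslinked chromatin is cut and religated, and every fragment joined to a chosen viewpoint fragment is amplified by inverse PCR and sequenced, so that reads on a fragment reflect, after PCR, its ligation to the viewpoint. The 4 libraries came from E14Tg2a, a line of mouse embryonic stem cells (ESC). They were wild type (WT) or del36, a line labelled as lacking the boundary of the topologically associating domains of Six3 and Six2, each read from a fragment at the Six2 promoter (the Six2 viewpoint) and from one at PE Six3. The cell type label names 2i and LIF medium while the growth protocol describes serum and LIF, and the labels do not say whether del36 was 1 clone or whether the deletion was on both alleles.

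Topologically associating domains are stretches of chromosome whose loci contact each other more than loci outside, and boundaries, often bound by CTCF, separate neighbouring domains. A poised enhancer carries marks of both activation and Polycomb repression in ESC and becomes active upon differentiation. Six3 encodes a homeobox factor of forebrain and eye development, Six2 a homeobox factor of kidney progenitors, and Camkmt a calmodulin methyltransferase expressed in many tissues.

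The name intergenic was not strictly borne out by the RefSeq annotation (GRCm38.p6, the assembly of mm10). The stretch begins 1 bp past the annotated end of Camkmt (85090561 to 85458589) and ends 4.999 kb before the annotated span of Six3 (85613608 to 85626191), but 3 annotated genes overlap it. These are the pseudogenes Rpl31-ps16 (85498633 to 85499040) and Gm5231 (85541428 to 85542794), and the long noncoding RNA Six3os1 (85601932 to 85618396), of which 6.677 kb lie inside.

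Seen from the Six2 viewpoint fragment (85689020 to 85689800), the stretch runs from 80.412 to 230.43 kb away. The deleted part was located as the longest run without reads in the PE Six3 del36 library, 85629635 to 85666796, a length of 37.162 kb that starts 21.027 kb past the end of the stretch. The whole stretch therefore lies nearer to the Six2 viewpoint in del36, while its distance to PE Six3 is the same in both genotypes. The run held 46 read fragments with 42934 reads from PE Six3 in WT. Seen from Six2 it held 13485 reads on 35 fragments in WT and 796 reads on 7 fragments in del36. Of these 796, 786 lay on 2 fragments at its edges, so the run may reach past the deleted part. The other 10 reads lay on 5 fragments that held 552 to 2386 reads in WT and 1 to 4 reads in del36, so that up to 4 reads occurred on a fragment inside the deleted run. Counts this low on fragments well read in the other genotype recur in the stretch, and how they arose was not tested.

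The sequences of the genes that border or overlap the stretch are shown because fragment borders and gene starts decide what a read can represent. The first enzyme, NlaIII, cuts at CATG and the second, DpnII, at GATC. Both motifs are palindromes and so read the same on both strands, and they can overlap by their end letters. Of 690 fragment edges that fell inside RefSeq promoter windows, 690 lay beside a CATG. Of 32851 RefSeq promoter windows of 300 bases, 61.1% held CATG and 48.0% held GATC. The windows printed here run from 250 bases before to 50 bases after the annotated start, 5' to 3' on the gene's own strand, with CATG and GATC in capitals. They are Camkmt (chr17:85090376-85090675, plus strand), Six3os1 (chr17:85618347-85618646, minus strand) and Six3 (chr17:85620584-85620883, plus strand), from RefSeq on GRCm38.p6.
Camkmt: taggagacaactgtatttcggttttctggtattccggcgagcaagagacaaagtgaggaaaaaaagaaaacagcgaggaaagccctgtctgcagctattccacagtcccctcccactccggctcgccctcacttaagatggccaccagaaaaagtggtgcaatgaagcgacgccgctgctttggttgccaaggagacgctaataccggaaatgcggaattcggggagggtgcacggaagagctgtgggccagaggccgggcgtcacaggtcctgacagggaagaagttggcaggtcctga
Six3os1: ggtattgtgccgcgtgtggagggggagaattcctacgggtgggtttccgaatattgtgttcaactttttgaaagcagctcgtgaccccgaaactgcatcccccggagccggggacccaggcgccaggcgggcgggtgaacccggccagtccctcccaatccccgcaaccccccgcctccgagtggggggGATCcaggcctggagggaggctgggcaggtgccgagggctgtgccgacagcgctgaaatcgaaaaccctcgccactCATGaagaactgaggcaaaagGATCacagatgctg
Six3: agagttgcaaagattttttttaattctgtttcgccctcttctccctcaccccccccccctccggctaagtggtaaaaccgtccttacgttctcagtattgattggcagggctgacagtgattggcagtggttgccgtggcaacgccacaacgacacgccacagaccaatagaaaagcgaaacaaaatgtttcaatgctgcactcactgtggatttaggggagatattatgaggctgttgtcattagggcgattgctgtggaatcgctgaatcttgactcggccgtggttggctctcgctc

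The Six3os1 window held 1 CATG and 2 GATC, and those of Camkmt and Six3 held neither motif, so each of the latter lay within a single NlaIII fragment. None of these starts lies inside the stretch. The CATG of the Six3os1 window separated the fragment 85617322 to 85618377 from the fragment 85618382 to 85619399. The first held 571 reads from the Six2 viewpoint in WT, 1017 from the Six2 viewpoint in del36, none from PE Six3 in WT and 581 from PE Six3 in del36. The second held 1873, 4132, 504 and 2875 reads in the same order. The Six3 start of the printed window lay in the fragment 85620336 to 85621238. It held 107 and 375 reads from the Six2 viewpoint in WT and del36 and 339 and 109 from PE Six3. The annotated span of Six3 begins earlier, at 85613608, and the fragment at that position is not given here. The Camkmt start lay in the fragment 85089063 to 85091548, with 0 and 62 reads from the Six2 viewpoint and 61 and 70 from PE Six3. All 4 of these fragments had more reads from the Six2 viewpoint in del36, a library that also had more local reads.

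The libraries held 6169568 reads (Six2 viewpoint WT), 6056180 (Six2 viewpoint del36), 7730539 (PE Six3 WT) and 2238911 (PE Six3 del36). The viewpoint fragment itself took 83.9%, 83.6%, 66.3% and 35.2% of them. Shares are given of local reads, those within 1 Mb of the viewpoint with 10 kb on each side of it left out. Local reads numbered 165197, 237410, 1212820 and 354836 in the same order, on 734, 895, 1073 and 1602 fragments. There was 1 library per group, so no test between genotypes was possible and no p-value is given. Shares carry 95% Wilson intervals and log2 ratios of shares exact conditional (Clopper-Pearson) intervals. Reads were PCR products without molecular identifiers, so that these intervals cover counting error only and each difference is one between 2 libraries.

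The fragments of the stretch had a median length of 184 bp (17 to 1260 bp) and together covered 100.798 kb, 78.0% of its kept length. Of 398 pairs of neighbouring fragments, 267 were 4 bases apart, the width of the cut site. Of the 399 fragments, 162 were read in 1 library, 162 in 2, 57 in 3 and 18 in all 4. From the Six2 viewpoint 85 fragments were read in WT and 119 in del36, and from PE Six3 227 and 298. The median number of reads on a read fragment of the stretch was 22 and 146 from the Six2 viewpoint (WT, then del36) and 421 and 100 from PE Six3, against 48 and 136, and 371 and 72, over all local fragments. Fragments with at least 100 reads numbered 33 and 69 from the Six2 viewpoint and 164 and 149 from PE Six3. The floor of 3 reads equalled 0.00182% and 0.00126% of local reads from the Six2 viewpoint and 0.000247% and 0.000845% from PE Six3. It is not a bound on a share of 0. For 0 reads the Wilson interval reached 0.00233% and 0.00162% from the Six2 viewpoint, by counting error only.

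**Figure D1:**
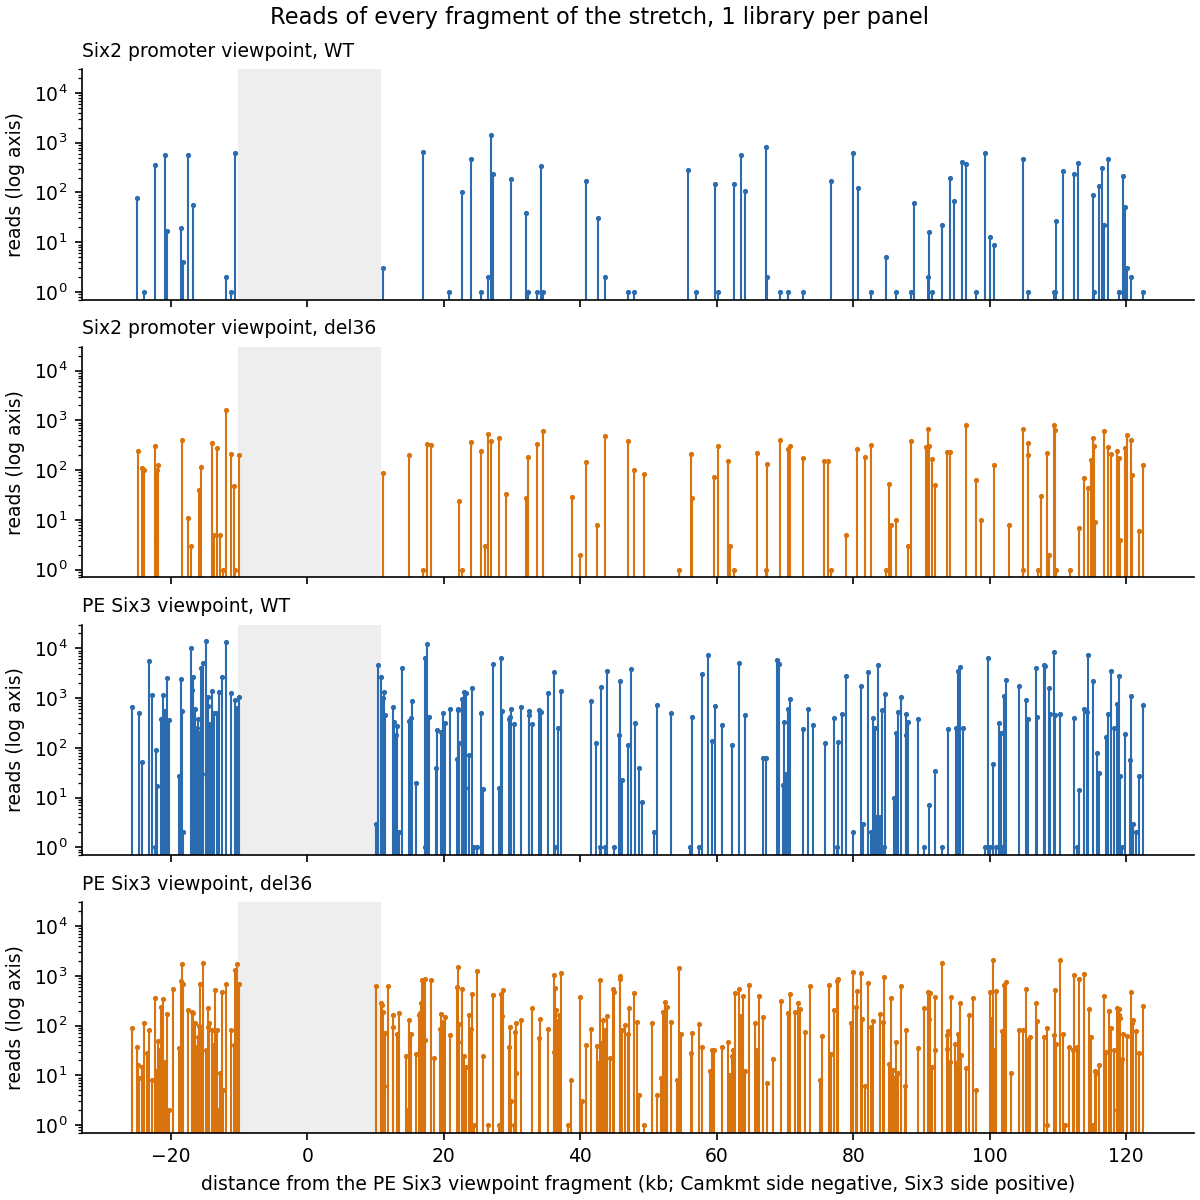
Reads (log axis) of every read fragment of the stretch against its distance in kb from the PE Six3 viewpoint fragment, with 1 library per panel, WT in blue and del36 in orange; the grey band is the part left out around PE Six3. From the Six2 viewpoint 85 fragments were read in WT and 119 in del36, and from PE Six3 227 and 298.

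From the Six2 viewpoint, the stretch as a whole held a slightly larger share of local reads in del36. It held 13487 reads in WT, 8.16% of local reads (8.03% to 8.30%), and 23414 in del36, 9.86% (9.74% to 9.98%). The log2 ratio of del36 over WT was 0.27 (0.24 to 0.30), a 1.21-fold difference. The deleted run itself took 8.16% of local reads in WT and 0.335% in del36, where 2 edge fragments held 786 of its 796 reads. With it left out of the local reads of both libraries, an alternative chosen after seeing the data, the shares were 8.89% and 9.90% and the log2 ratio fell to 0.15. Counted as covered length, the summed length of read fragments, in place of reads, the ratio was 0.07.

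The difference from the Six2 viewpoint was not spread evenly along the stretch. The part on the Six3 side of PE Six3 was split at its midpoint into stretches of 56.421 kb. The piece nearer Six3 held 3.79% in WT and 5.37% in del36, a log2 ratio of 0.50 (0.46 to 0.54). The piece nearer PE Six3 held 2.99% and 2.69%, a log2 ratio of -0.15 (-0.20 to -0.10). The 16.451 kb on the Camkmt side of PE Six3 held 1.38% and 1.80%, a log2 ratio of 0.38 (0.31 to 0.45). The 20.726 kb around PE Six3 that the rule leaves out held 2.54% and 2.40%, a log2 ratio of -0.08 (-0.14 to -0.02). The pieces thus moved in both directions, and the piece nearest the deletion differed most.

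Regions outside the stretch also moved from the Six2 viewpoint. The span of Camkmt, farther from Six2, held 11.4% in WT and 16.0% in del36, a log2 ratio of 0.50 (0.47 to 0.52). The stretch between Six2 and its other neighbour Srbd1, on the side away from the deletion, held 28.6% and 20.3%, a log2 ratio of -0.49 (-0.51 to -0.48). The mirror image of the kept stretch on that other side of the viewpoint, at the same distances, held 12.3% and 9.38%, a log2 ratio of -0.39 (-0.42 to -0.37). Per 10 kb, the stretch held 0.631% of local reads in WT, below the 0.953% of its mirror image, and 0.763% in del36, above the 0.725% of its mirror image. When the mirror image was moved nearer by the deleted length, chosen after seeing the data, it held 12.7% and 10.9%, a log2 ratio of -0.22 (-0.25 to -0.19), or 0.980% and 0.842% per 10 kb, in both genotypes above the stretch. How far the shorter distance to the viewpoint accounts for the difference was not tested.

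From PE Six3, the stretch held a slightly smaller share of local reads in del36. It held 284131 reads in WT, 23.4% of local reads (23.35% to 23.50%), and 76514 in del36, 21.6% (21.43% to 21.70%). The log2 ratio was -0.12 (-0.13 to -0.11), a 0.920-fold difference. Its sign turned to 0.05 when 25 kb in place of 10 kb were excluded around the viewpoint, which removes nearly the whole Camkmt side. That side alone held 6.70% in WT and 4.27% in del36, a log2 ratio of -0.65 (-0.68 to -0.63). The Six3 side held 16.7% and 17.3%, a log2 ratio of 0.05 (0.04 to 0.06). Within it the piece nearer PE Six3 held 8.34% and 8.32%, and the piece nearer Six3 held 8.39% and 8.98%, a log2 ratio of 0.10 (0.08 to 0.12). The lower share in del36 thus came from the 16.451 kb next to PE Six3 on the Camkmt side.

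Among the regions compared from PE Six3, the largest difference lay outside the stretch. The stretch between Six2 and Srbd1, beyond the deletion, held 9.37% in WT and 17.1% in del36, a log2 ratio of 0.87 (0.85 to 0.88). The Camkmt span held 29.9% and 27.4%, a log2 ratio of -0.13 (-0.14 to -0.12), close to the value of the stretch. The mirror image of the Six3 side, which contains the Camkmt side of the stretch, held 16.4% and 14.6%, a log2 ratio of -0.17 (-0.18 to -0.15). Per 10 kb the Six3 side held 1.48% and 1.53% and its mirror image 1.45% and 1.29%. The PE Six3 del36 library had fewer local reads than that of WT, 354836 against 1212820, on more local fragments, 1602 against 1073, and the part of this in the ratios was not tested.

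Divided into 10-kb windows from its Camkmt end, the stretch gave 14 windows with fragments, of which that at 85468590 kept 6.451 kb and that at 85488590 kept 2.823 kb; a further window lay wholly in the part left out. From the Six2 viewpoint, 5 of 14 windows (35.7%) were at least 2-fold higher in del36, against 41.6% of 185 windows within 1 Mb that were read above the floor. None of the 14 was at least 2-fold lower, against 23.8% of the 185. From PE Six3, 1 of 14 windows (7.14%) was at least 2-fold higher, against 36.9% of 195 windows. None of the 14 was at least 2-fold lower, against 23.1% of the 195. The windows of the stretch lay close to the viewpoint and held more reads than most, with a median share from the Six2 viewpoint of 0.505% in WT and 0.610% in del36, against 0.178% and 0.314% over all windows. From PE Six3 the medians were 1.55% and 1.45% in the stretch against 0.248% and 0.330%.

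The log2 ratios of the windows did not reach as low as those of the wider region. Seen from Six2 they ran from -0.76 to 7.52 with a median of 0.22, against a median of 0.42 and a range from the 5th to the 95th percentile of -4.48 to 7.29 over the 185 windows. From PE Six3 they ran from -0.70 to 1.36 with a median of -0.36, against a median of 0.45 and a range of -2.92 to 9.23 over the 195. Windows higher in del36 numbered 7 of 14 against 108 of 185 from the Six2 viewpoint, and 5 of 14 against 111 of 195 from PE Six3. Windows outside the stretch were mostly farther from the viewpoint and more sparsely read.

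**Figure D2:**
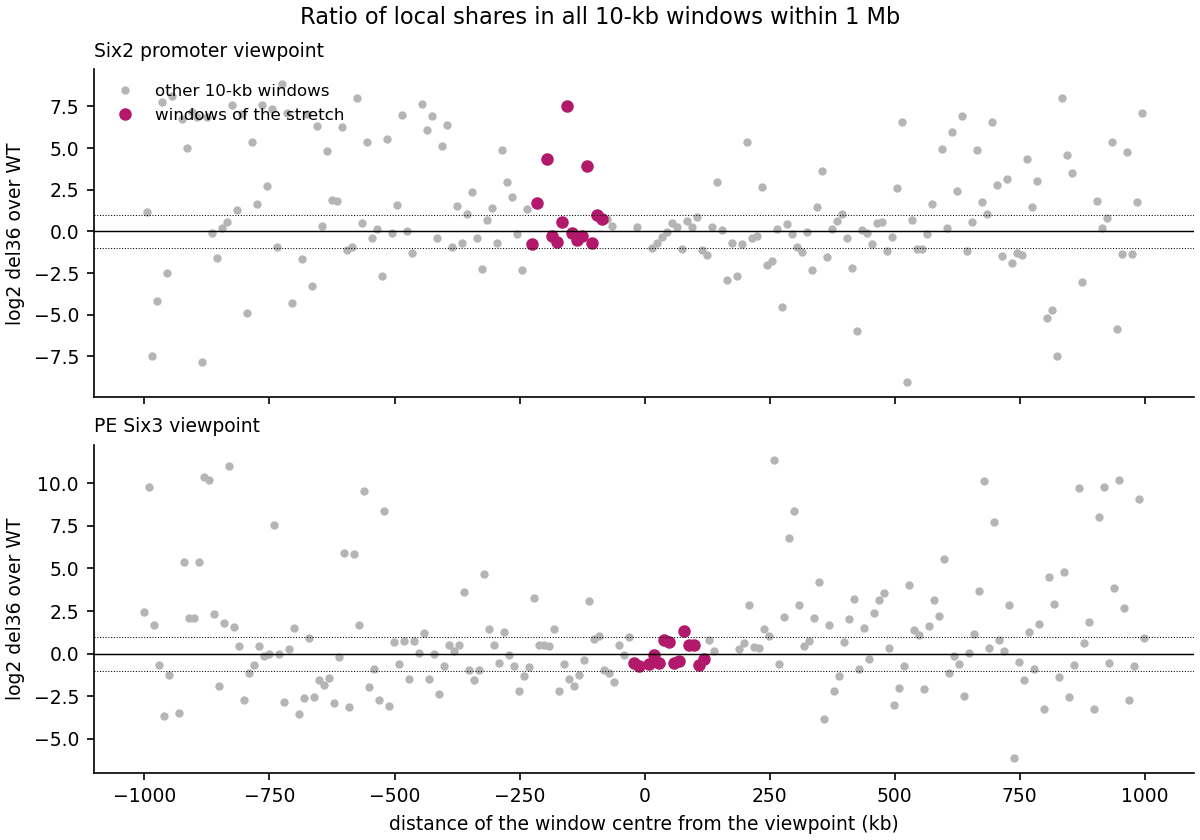
Log2 ratio of local shares, del36 over WT, in each 10-kb window within 1 Mb, against the distance of the window centre from the viewpoint in kb, with windows of the stretch in magenta, other windows in grey and dotted lines at 2-fold. The windows of the stretch ran from -0.76 to 7.52 from the Six2 viewpoint and from -0.70 to 1.36 from PE Six3.

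The windows that differed most from the Six2 viewpoint were almost unread in WT. The window 85528590 to 85538589 held 4 reads on 3 fragments in WT and 1055 on 4 fragments in del36, or 0.00242% and 0.444% of local reads, a log2 ratio of 7.52 (6.16 to 9.40). Its del36 reads came mainly from the fragments 85529222 to 85529649, with 2 WT reads and 491 del36 reads, and 85532628 to 85532829, with 1 and 382. From PE Six3 the same window held 12738 WT reads and 6056 del36 reads, or 1.05% and 1.71% of local reads. The medians of the windows of the stretch from PE Six3 were 1.55% and 1.45%.

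The window 85568590 to 85578589 held 88 reads from the Six2 viewpoint in WT and 1944 in del36, or 0.0533% and 0.819%, a log2 ratio of 3.94 (3.63 to 4.27). From PE Six3 it held 0.840% and 1.20%. Its tallest fragment from the Six2 viewpoint in del36, 85576697 to 85576741, held 663 reads against 2 in WT, and 0 in WT against 475 in del36 from PE Six3. That fragment is 45 bp long, and its del36 reads were the higher from both viewpoints.

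On the Camkmt side of PE Six3, the window 85468590 to 85478589 held 625 reads from the Six2 viewpoint in WT and 2869 in del36, 0.378% and 1.21%, a log2 ratio of 1.68 (1.55 to 1.80). From PE Six3 it was the tallest window of the stretch in both libraries, with 4.20% in WT and 2.58% in del36, a log2 ratio of -0.70 (-0.73 to -0.67). The neighbouring window 85458590 to 85468589 was lower in del36 from both viewpoints, with 1.01% and 0.593% from the Six2 viewpoint and 2.50% and 1.68% from PE Six3. The partly kept window 85488590 to 85498589 held 3 WT reads and 88 del36 reads from the Six2 viewpoint, all on 1 fragment, and 0.984% and 0.652% of local reads from PE Six3.

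At the Six3 end, both windows were higher in del36 from the Six2 viewpoint and lower from PE Six3. The window 85588590 to 85598589 held 0.617% of WT and 1.24% of del36 local reads from the Six2 viewpoint, a log2 ratio of 1.00 (0.90 to 1.11) that lies on the 2-fold line, and 2.35% and 1.51% from PE Six3. The last window, 85598590 to 85608608, which holds the 3' part of Six3os1, had the highest share of the stretch from the Six2 viewpoint in del36. It held 1692 reads and 1.02% in WT, and 3989 reads and 1.68% in del36, a log2 ratio of 0.71 (0.63 to 0.80). From PE Six3 the same window held 1.73% and 1.39%.

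Apart from the windows at 85528590 and 85568590, those in the middle of the stretch stayed within 2-fold from the Six2 viewpoint. The tallest window from the Six2 viewpoint in WT was 85508590 to 85518589, with 2368 reads and 1.43% in WT and 2217 reads and 0.934% in del36, of which a single fragment gave 60.1% in WT. The 6 remaining windows between 85498590 and 85588589 had log2 ratios from the Six2 viewpoint of -0.73 to 0.55. From PE Six3, the only window past 2-fold was 85558590 to 85568589, with 9955 reads and 0.821% in WT and 7470 reads and 2.11% in del36, a log2 ratio of 1.36 (1.32 to 1.40). Seen from Six2 that window held 0.559% and 0.457%.

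**Figure D3:**
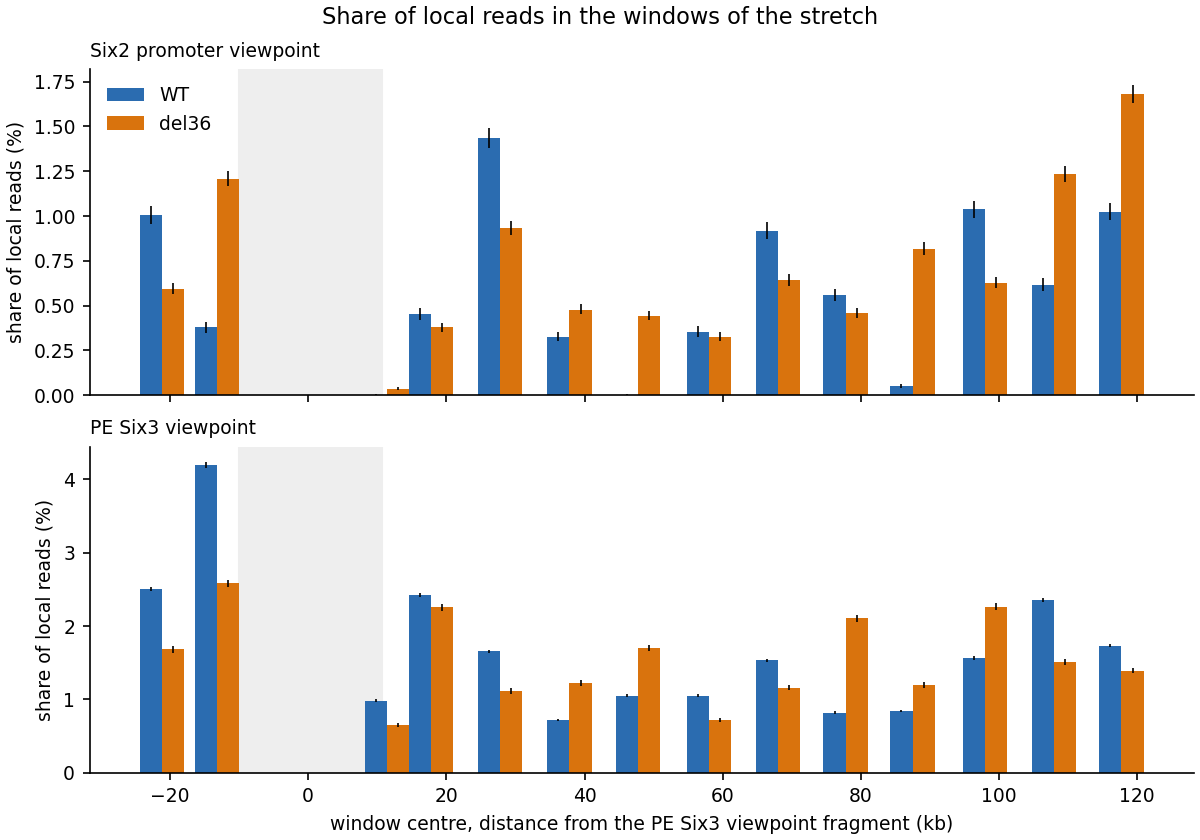
Share of local reads (%) in each 10-kb window of the stretch, from the Six2 viewpoint (top) and from PE Six3 (bottom), WT in blue and del36 in orange, against the distance in kb of the centre of the window's fragments from the PE Six3 viewpoint fragment; error bars are 95% Wilson intervals and the grey band is the part left out. The highest del36 bar from the Six2 viewpoint is 1.68% in the last window, and the highest bars from PE Six3 are 4.20% in WT and 2.58% in del36 in the same window on the Camkmt side.

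Window values rested on few fragments. The tallest fragment of a window held 28.0% to 100% of its reads from the Six2 viewpoint in WT, 15.3% to 100% in del36, 28.3% to 58.7% from PE Six3 in WT and 15.8% to 55.7% in del36. A further count left the tallest fragment of each library out of each window, chosen after seeing the data. From the Six2 viewpoint 10 of 13 windows were then higher in del36, and 4 changed direction. From PE Six3 7 of 14 were then higher, and 2 changed direction. The same counts over all windows within 1 Mb are not given here. Over the whole stretch, 50% of the reads came from 10 fragments (WT) and 21 fragments (del36) for the Six2 viewpoint, and from 20 and 35 for PE Six3. The tallest fragment alone gave 10.6% and 6.86% of the reads from the Six2 viewpoint and 5.07% and 2.76% from PE Six3.

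Single fragments were shared between genotypes only in part. Of 150 fragments of the stretch read from the Six2 viewpoint in either genotype, 54 were read in both (36%), against 29.2% of 1228 fragments within 1 Mb. These 54 were 63.5% of the 85 read in WT and 45.4% of the 119 read in del36. A fragment counted as read from 1 read on, and 7 of the 54 had at least 100 reads in both genotypes. Counts of 1 to 4 reads also occurred inside the deleted run in del36. From PE Six3, 164 of 361 were read in both (45.4%), against 23.0% of 2138 fragments. These 164 were 72.2% of the 227 read in WT and 55.0% of the 298 read in del36. Of the 164, 60 had at least 100 reads in both genotypes. The shares read in both genotypes, counted from 1 read on, were higher in the stretch than in the wider region from both viewpoints. From the Six2 viewpoint in WT, the median reads of a read fragment were lower in the stretch than over all local fragments, 22 against 48. They were higher in the stretch from the Six2 viewpoint in del36 (146 against 136) and from PE Six3 (421 against 371 in WT, 100 against 72 in del36). Read depth per fragment can move with this share, and its part in it was not tested.

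Many well-read fragments were unread in the other genotype. Of 33 fragments with at least 100 reads from the Six2 viewpoint in WT, 18 had no read in del36 (54.5%, against 59.8% of 296 such fragments within 1 Mb), 7 had 1 to 9 reads and 7 had at least 100. Of 69 such fragments in del36, 29 had no read in WT (42%, against 50.7% of 505), 29 had 1 to 9 and 7 had at least 100. From PE Six3, 60 fragments had at least 100 reads in both genotypes, of 164 in WT and 149 in del36. Of the 164, 48 had no read in del36 (29.3%, against 58.5% of 742 within 1 Mb), and of the 149, 60 had no read in WT (40.3%, against 58.8% of 663). Over the 14 windows, reads in WT and del36 had a Spearman correlation of 0.56 from the Six2 viewpoint and 0.42 from PE Six3. The Pearson correlations were 0.44 and 0.60. Over the 399 fragments, most of them unread in at least 1 of the 2 libraries, the Spearman correlations were 0.38 and 0.06. Pearson correlations on a log10 scale were 0.13 and 0.007. Fragments unread in both libraries are included as ties. Those read in either library numbered 150 from the Six2 viewpoint and 361 from PE Six3, so these fragment values cannot be compared between viewpoints. These values describe windows and fragments that share the 2 libraries and their depth.

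**Figure D4:**
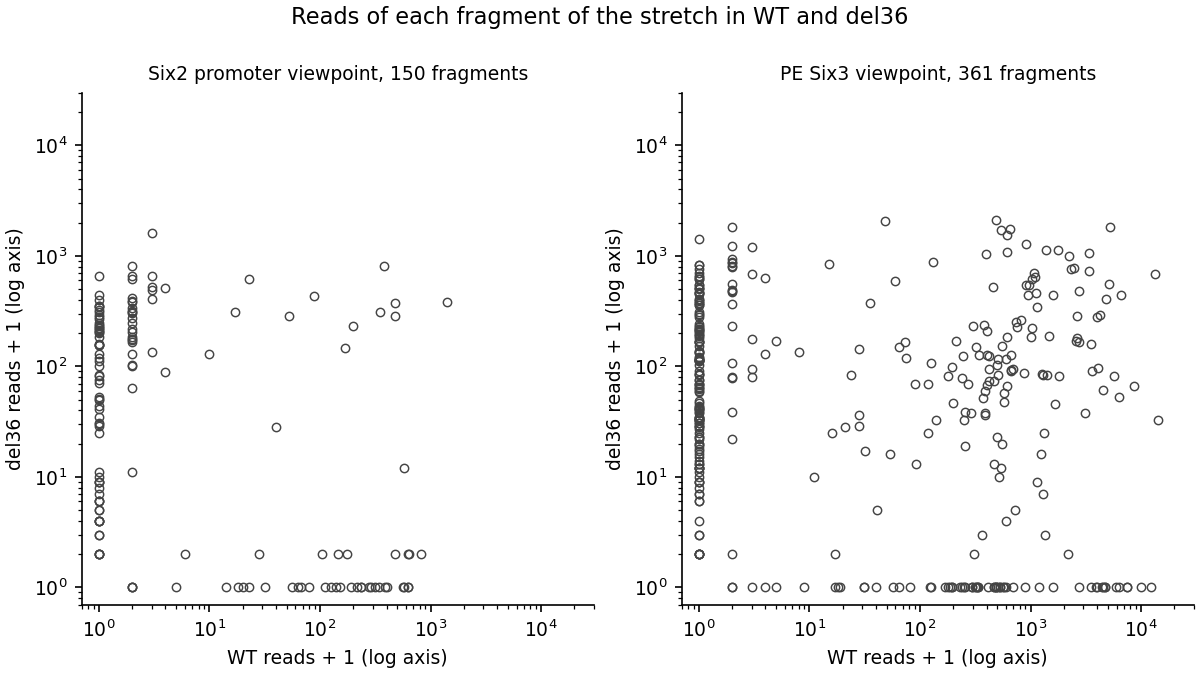
Reads plus 1 of each fragment of the stretch in WT (horizontal) and del36 (vertical), both on log axes, for the Six2 viewpoint viewpoint (left, 150 fragments) and PE Six3 (right, 361 fragments). Points on the lower and left edges were not read in 1 genotype, and 7 fragments on the left panel and 60 on the right had at least 100 reads in both.

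The fragments with most reads differed between the genotypes. In WT, the tallest from the Six2 viewpoint was 85512602 to 85512801, with 1423 reads in WT and 379 in del36, a log2 ratio of local shares of -2.43 (-2.60 to -2.27). It had no read from PE Six3 in either genotype. The next 4 were nearly or wholly unread in del36. Fragment 85552940 to 85553014 had 824 reads against 1, and 85502699 to 85502835 had 643 against 1. Fragments 85584843 to 85585191 (624 reads) and 85565587 to 85565885 (623 reads) had none in del36. The last of these had 2 reads in WT and 1209 in del36 from PE Six3, the opposite direction.

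In del36, the tallest fragment from the Six2 viewpoint was 85472799 to 85473478 on the Camkmt side of PE Six3, which had 2 WT reads and 1607 del36 reads. From PE Six3 the same fragment had 13354 reads in WT and 686 in del36, a log2 ratio of -2.51 (-2.62 to -2.40). Fragment 85582006 to 85582627 had 377 and 814 reads from the Six2 viewpoint, a log2 ratio of 0.59 (0.41 to 0.77), the highest among the 7 fragments with at least 100 reads in both genotypes. Fragment 85595205 to 85595302 had 1 and 807 reads from the Six2 viewpoint and 8616 and 65 from PE Six3. Fragment 85590680 to 85590761 had none in WT and 660 in del36. The fragments at 85472799 and 85595205 were among the 5 tallest of 2 libraries, Six2 viewpoint del36 and PE Six3 WT, and no other fragment was among the 5 tallest of more than 1.

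The other 6 of these 7 fragments, the tallest WT fragment among them, had a lower share in del36, though for 1 of them the interval of the ratio included 0. Fragment 85603097 to 85603270, in Six3os1, had 474 reads in WT and 287 in del36, a log2 ratio of -1.25 (-1.46 to -1.03). Fragment 85509677 to 85509804 had 479 and 375, a log2 ratio of -0.88 (-1.08 to -0.68). Fragment 85462623 to 85462806 had 351 and 311, a log2 ratio of -0.70 (-0.92 to -0.47), and fragment 85579715 to 85580062 had 197 and 233, a log2 ratio of -0.28 (-0.56 to 2.99e-05). The higher share of the stretch in del36 therefore lay on fragments other than these 6.

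From PE Six3 in WT, the tallest fragment was 85470027 to 85470505 on the Camkmt side, with 14392 reads in WT and 32 in del36, a log2 ratio of -7.04 (-7.59 to -6.54). It was unread from the Six2 viewpoint. Fragment 85503211 to 85503318 had 12185 reads in WT and none in del36, and fragment 85467936 to 85468138 had 10070 and none. Seen from Six2 these 2 had 0 and 0 reads in WT, and 344 and 3 in del36. These fragments, unread or nearly unread in del36, lay within 20 kb of PE Six3, but such differences were not confined to its neighbourhood. Fragment 85595205 to 85595302, also among the 5 tallest in WT, had 8616 reads in WT and 65 in del36. It lay 109 kb from PE Six3. All these fragments were named for their WT reads, and how the differences arose was not tested.

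From PE Six3 in del36, the tallest fragment was 85595513 to 85596513, with 485 reads in WT and 2114 in del36, a log2 ratio of 3.90 (3.75 to 4.04). Fragment 85586127 to 85586328 had 47 and 2047 reads, and fragment 85578570 to 85579077 had 1 and 1819. Fragment 85469639 to 85470022 had 5205 and 1808, a log2 ratio of 0.25 (0.17 to 0.33), and borders the tallest WT fragment at 85470027. Fragment 85474664 to 85474874 had 649 and 1765, a log2 ratio of 3.22 (3.09 to 3.35). Of these 5, only the fragment at 85578570 was read from the Six2 viewpoint, with 22 reads in WT.

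Among the 60 fragments read at least 100 times in both genotypes from PE Six3, the log2 ratio ran from -2.69 to 4.54. The lowest was that of 85529654 to 85529883, with 3490 WT reads and 158 del36 reads, and the third lowest that of 85604584 to 85604727, in Six3os1, with 2736 and 165, a log2 ratio of -2.28 (-2.51 to -2.05). The highest was that of 85563457 to 85563533, with 129 and 880. Fragment 85466522 to 85466780 had 545 and 1724, a log2 ratio of 3.43 (3.29 to 3.57).

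Part of the fragments of the stretch were read from both viewpoints. In WT these were 39, which is 45.9% of those read from the Six2 viewpoint, 17.2% of those read from PE Six3 and 14.3% of the 273 read from either, against 9.51% of 1503 fragments within 1 Mb of both viewpoints. In del36 they were 79, which is 66.4%, 26.5% and 23.4% of 338, against 13.9% of 2076. Both del36 libraries had more read fragments than their WT counterparts, and the part of this in the larger overlap was not tested. Of the 18 fragments read in all 4 libraries, the one at 85462623 to 85462806 had 351, 311, 1 and 366 reads (Six2 viewpoint WT and del36, PE Six3 WT and del36), and the one at 85474272 to 85474659 had 622, 1, 912 and 1293. Most of the 18 had only 1 to 3 reads from the Six2 viewpoint in WT. A single read counted as read here, also among the 39 and 79.

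The annotated span of Six3os1, a noncoding RNA on the strand opposite to Six3, overlaps that of Six3 outside the stretch. Among annotated genes inside the stretch, Six3os1 overlapped 26 fragments. Seen from Six2 these held 1219 reads in WT and 2956 in del36, or 0.738% and 1.25% of local reads, a log2 ratio of 0.75 (0.66 to 0.85). From PE Six3 they held 10150 and 2721 reads, or 0.837% and 0.767%, a log2 ratio of -0.13 (-0.19 to -0.06). The pseudogene Gm5231 overlapped 5 fragments, with 289 and 238 reads from the Six2 viewpoint, a log2 ratio of -0.80 (-1.06 to -0.55), and 422 and 100 from PE Six3, a log2 ratio of -0.30 (-0.63 to 0.01). The ribosomal protein pseudogene Rpl31-ps16 overlapped 4 fragments, with no read from the Six2 viewpoint in either genotype and 782 and 245 from PE Six3, a log2 ratio of 0.10 (-0.11 to 0.31). Reads from near-identical copies of a pseudogene elsewhere may map there or be lost, and how such reads were filtered is not given here.

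Among the 399 fragments, each read in at least 1 of the 4 libraries, those of up to 100 bp were read less often than longer ones in each library. The 399 comprised 114 fragments of up to 100 bp, 159 of 100 to 300 bp and 126 longer ones. Fragments unread in all 4 libraries were not counted, so the percentages are not reading rates over all fragments of a length. Read from the Six2 viewpoint were 17.5%, 22.6% and 23.0% of these in WT, and 26.3%, 29.6% and 33.3% in del36. From PE Six3 48.2%, 60.4% and 60.3% were read in WT, and 72.8%, 74.2% and 77.0% in del36. Within each length class more fragments were read in del36 than in WT from both viewpoints. Libraries of the series from viewpoints on other chromosomes served as a background of reads in the stretch. Of the 9 such libraries, 8 had no read on a fragment of the stretch.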

How the data were processed

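The 4 libraries compared were 4C-seq libraries of mouse ESC, 1 per viewpoint and genotype, grouped by their titles; 9 further libraries, from viewpoints on other chromosomes, served only as background, and the remaining samples of the 28 were not analysed here. The authors deposited 1 value per restriction fragment in RPM, reads scaled to library size, per the file headers. The submitters' processing notes name HISAT2 and mm10; neither its version nor any filtering of reads is given in the sources used here. In each of the 13 libraries 100% of the values were whole multiples of the smallest value within a tolerance of 0.1, so whole reads per fragment were recovered by division. A count test on these reads was not run, because each group had 1 library.

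Local reads were those within 1 Mb of the viewpoint without 10 kb on each side, by fragment midpoint, and the viewpoint was the fragment with most reads. Windows of 10 kb were tiled from the start of the stretch. A window was compared where either library had more than 3 reads, with counts under 3 set to 3, and background windows left out those touching the deleted run and the 10 kb on each side of PE Six3. The interval and window code was tested on simulated data. The fragments named were the 5 with most reads in each library and, per viewpoint, the 3 highest and 3 lowest ratios among fragments with at least 100 reads in both genotypes; other fragments named within a window, and the 2 chosen from those read in all 4 libraries, were picked after their values were seen. The stretch, the compared regions and the lists were chosen with earlier results of these data known. Genes and promoters came from RefSeq tables of GRCm38.p6. Alternatives were the share of chromosome 17 reads, unscaled RPM, 25 kb left out, capped fragments, the tallest fragment left out, a minimum of 10 reads, covered length, and other window sizes and starts. Python 3.11.15, numpy 2.4.6, pandas 2.3.3, scipy 1.17.1 and matplotlib 3.10.9 were used.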

Additional observations from a re-analysis of the deposited data

Results flagged for a closer look

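The share of the stretch moved in opposite directions from the 2 viewpoints, with a log2 ratio of del36 over WT of 0.27 from the Six2 viewpoint and -0.12 from PE Six3. The difference between the viewpoints was not tested, here or in any window, because each value rests on 1 library per genotype. With 25 kb left out around the viewpoint, the ratio from PE Six3 was 0.05 and both then had the same sign.

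In 6 of the 14 windows the intervals of the log2 ratio lay on opposite sides of 0. Both directions were common in the wider region, where 108 of 185 windows were higher in del36 from the Six2 viewpoint and 111 of 195 from PE Six3. How many windows there had opposite directions is not given here, so the 6 are not shown to be particular to the stretch. At 85468590 to 85478589 the ratio was 1.68 from the Six2 viewpoint and -0.70 from PE Six3. At 85488590 to 85498589, where the Six2 viewpoint had 3 reads in WT, it was 4.35 and -0.59. At the Six3 end, 85588590 to 85598589 had 1.00 and -0.64, and 85598590 to 85608608 had 0.71 and -0.32. The direction was the other way round in 2 windows of the middle, with -0.29 and 1.36 at 85558590 to 85568589, and -0.73 and 0.53 at 85578590 to 85588589. In 2 of these windows the opposite directions were lost when the tallest fragment of each library was left out. The ratio from the Six2 viewpoint at 85558590 was then 0.84 and that from PE Six3 at 85598590 was 0.03. At 85488590 all reads from the Six2 viewpoint lay on 1 fragment, which left no such ratio. At 85468590 1 fragment held 99.5% of the WT reads from the Six2 viewpoint.

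A library from another chromosome had reads in the stretch. The library of the Gata6 promoter viewpoint in anterior neural progenitor cells carrying the insertion labelled TFBS+CGI had 123 reads, 0.00166% of that library, all on the 27-bp fragment 85581056 to 85581082. That fragment had no read from the Six2 viewpoint and 89 and 68 reads from PE Six3 in WT and del36.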

How the results depend on the processing

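Shares of the stretch are given in the order Six2 viewpoint WT, Six2 viewpoint del36, PE Six3 WT and PE Six3 del36. They were 5.84%, 7.54%, 17.9% and 15.9% of all chromosome 17 reads, 8.85%, 10.8%, 22.4% and 21.3% with fragments capped at the 95th percentile, and 7.37%, 9.25%, 22.5% and 21.1% without the tallest fragment. As covered length they were 10.9%, 11.4%, 18.7% and 17.2%. Without the deleted run in the local reads, an alternative added after seeing the data, the WT shares were 8.89% and 24.3%, while those of del36 stayed within their intervals. From the Six2 viewpoint the log2 ratio stayed positive in every alternative tried, at 0.37 for chromosome 17 reads, 0.82 for unscaled RPM, 0.31 without the tallest fragments, 0.15 without the deleted run and 0.069 as covered length. From PE Six3 it was -0.17 for chromosome 17 reads, -0.11 for unscaled RPM, -0.071 with capped fragments, -0.092 without the tallest fragments and -0.17 without the deleted run, and it turned to 0.047 with 25 kb left out around the viewpoint, which drops most of the Camkmt side. Windows past 2-fold from the Six2 viewpoint were 15 of 27 with 5-kb windows (11 higher, 4 lower) and 3 of 7 with 20-kb windows. From PE Six3 they were 11 of 27 with 5-kb windows (6 higher, 5 lower) and 0 of 7 with 20-kb windows. With the windows shifted by 5 kb they were 3 of 15 (2 higher, 1 lower). The cause was not tested. Shares over all windows within 1 Mb are not given for these settings, so the counts from either viewpoint have no background. The Six2 viewpoint in WT had the fewest local reads of the 4 libraries, 165197. It also had the lowest median of reads per read fragment of the stretch, 22. How far depth limits the results was not tested. No paired analysis was possible because there was 1 library per group.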
